A study of Mus musculus with 4 samples.

Results

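The nuclear genes of respiratory complexes II, III, IV and V were followed in the hearts of mice at 12 months and at 8 weeks of age. They were taken from the deposited gene table by name (Sdha to Sdhd, Sdhaf, Uqcr, Cyc1, Cox4 to Cox20 and Atp5 genes), and 9 rows whose names mark pseudogenes with "-ps" were left out. This gave 61 of the table's 28723 genes. Of these, 8 belong to complex II, 9 to complex III, 27 to complex IV and 17 to complex V, and 47 are subunits with their isoforms, 13 are assembly factors and 1, Cox6c2, is a processed pseudogene by the deposited annotation.

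Poly(A)-selected RNA from heart tissue was sequenced in 4 libraries, 2 from mice kept to 12 months of age and 2 from mice kept to 8 weeks. All were C57BL/6J animals with the genotype WT, given no treatment and housed in a specific-pathogen-free facility. The 12-month libraries carry the titles FLOX5 and FLOX6 and the 8-week libraries C4 and C5; what FLOX stands for is not given, and the genotype entry is WT in all 4. Neither the sex of the animals nor whether a library is 1 heart or a pool is given, so the p-values rest on the scatter between libraries, which may be technical, and the age is the sole entry under the tag "batch", so age and any day of dissection or sequencing cannot be told apart.

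The respiratory chain sits in the inner mitochondrial membrane. Complex II, succinate dehydrogenase, oxidises succinate in the citric acid cycle and passes the electrons to ubiquinone without pumping protons. Complex III, the cytochrome bc1 complex, moves electrons from ubiquinol to cytochrome c, complex IV, cytochrome c oxidase, moves them on to oxygen, and both build the proton gradient that complex V, the ATP synthase, uses to make ATP. All subunits of complex II are nuclear, whereas complexes III, IV and V each join nuclear subunits to ones encoded by mitochondrial DNA. Several complex IV subunits exist as a form of heart and skeletal muscle and a form found in most tissues, and assembly factors, which are not part of the finished enzymes, insert haem, copper, flavin and iron-sulfur clusters. The heart is among the tissues richest in these complexes.

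Most nuclear genes of these complexes were lower at 12 months than at 8 weeks. A gene was called at an adjusted p below 0.05 in edgeR's quasi-likelihood test, adjusted by Benjamini-Hochberg over the 12027 genes with a mean of at least 1 FPKM (a fragment count divided by transcript length and library depth). Of the 61 members 59 passed that minimum; 37 of them fell (62.7%), against 17.5% of all tested genes, and 4 rose (6.78%), against 20.1%. Calls in either direction made up 69.5% of members and 37.6% of all tested genes. Sdha, Uqcrc2, Cox10 and Cox15 were the 4 that rose. The median log2 fold change (12 months over 8 weeks) was -0.55 over the members tested and 0.01 over all tested genes. Taken by FPKM alone, both 12-month libraries lay below both 8-week libraries in 41 of 59 members (69.5%; 31.1% of all tested genes) and above them in 10 (16.9%; 41.4% of all tested genes), and in 8 the ages overlapped. The 2 members not tested were Cox6b2 and Cox7b2, isoforms of testis, which had at most 1.02 and 0.32 FPKM in any library. DESeq2 called 39 members lower (19% of all tested genes) and 8 higher (21.5%). Rescaling each library's FPKM to 1 common sum before limma moved the median of all tested genes to 0.18, and 29 members were then lower (8.71% of all tested genes) and 9 higher (31.4%). Of the 37 falls, those of Sdhb (-0.24), Uqcrc1 (-0.20), Cyc1 (-0.25), Uqcrb (-0.34), Cox6a1 (-0.09), Cox8a (-0.27), Cox14 (-0.28) and Atp5g1 (-0.27) lost their call there.

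By role, 34 of 45 tested subunits fell (75.6%) and 2 rose, with a median of -0.68, against 17.5% lower and 20.1% higher among all tested genes. Of 13 assembly factors 2 fell (15.4%) and 2 rose (15.4%), with a median of -0.26, shares near those of all tested genes. By complex, the median of the subunits was 0.22 in complex II, -0.55 in complex III, -0.71 in complex IV and -0.68 in complex V. The 8 largest falls, of Cox6c2, Cox4i2, Uqcrq, Cox17, Atp5e, Uqcr11, Atp5mpl and Cox5b, left fitted levels at 33% to 48.1% of those at 8 weeks. These counts and medians describe the sets; no test was made of the difference between sets.

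**Figure D1:**
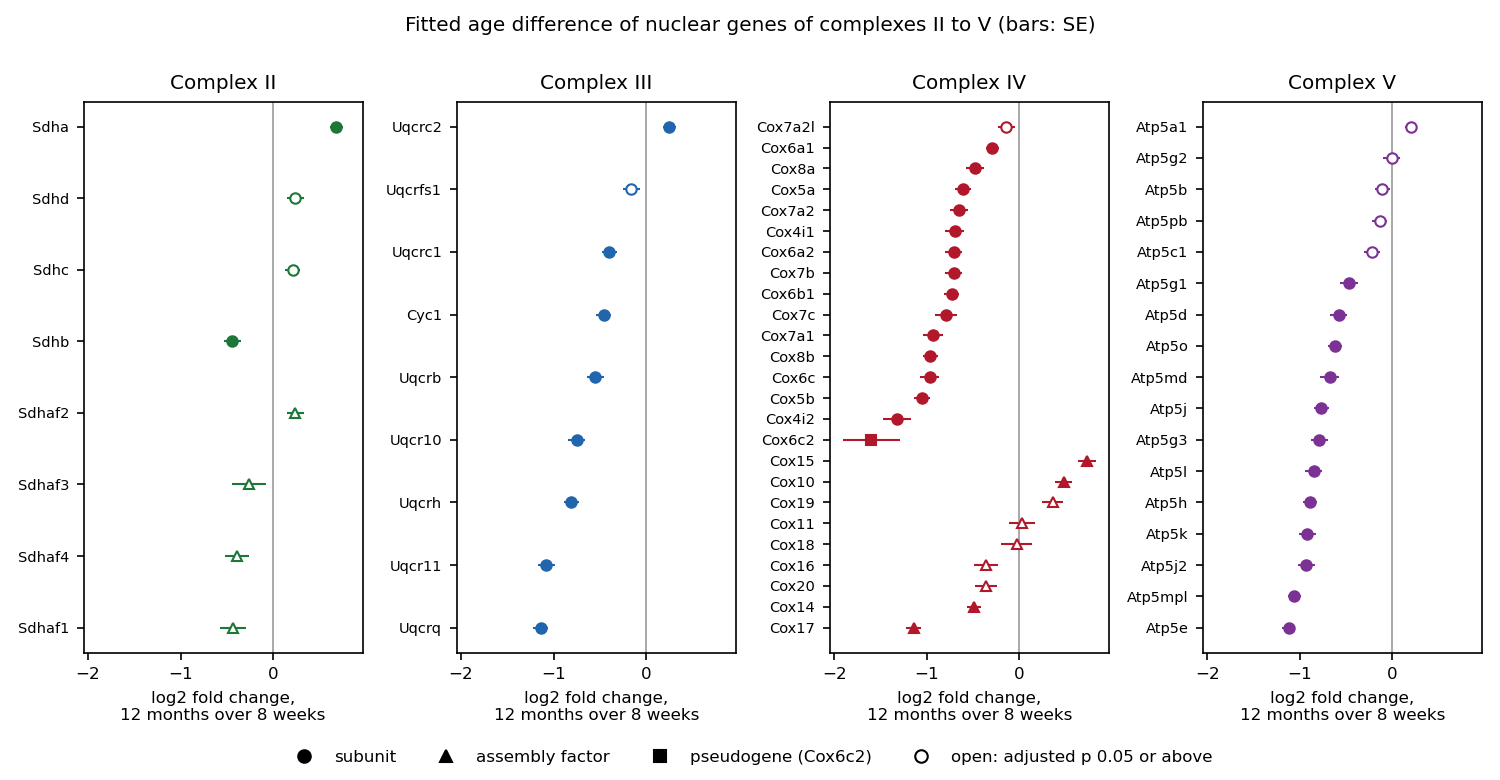
Fitted log2 fold change (12 months over 8 weeks, horizontal axis) of the 59 tested nuclear genes of complexes II to V, one panel per complex, with bars for 1 SE; circles are subunits, triangles assembly factors, the square is the pseudogene Cox6c2, and open symbols did not pass an adjusted p of 0.05. Nearly all subunits of complexes III, IV and V lie left of 0, while Sdha (0.68), Uqcrc2 (0.25), Cox15 (0.73) and Cox10 (0.48) are the filled symbols on the right.

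The libraries held 51328364 and 55411355 counts at 12 months, against 52866260 and 63828074 at 8 weeks, and each tested member had a mean of at least 1.18 FPKM at both ages. The members together took 2.79% and 3.05% of the counts at 12 months, against 3.88% and 3.63% at 8 weeks, once mitochondrially encoded genes and their nuclear copies were set aside. Complex IV took 0.413% and 0.467% at 12 months, against 0.776% and 0.725% at 8 weeks, whereas complex II took 0.33% and 0.346%, against 0.314% and 0.291%. Within an age the members also moved together: 12-month replicate 2 was above replicate 1 in 51 of 59 (86.4%; 57.4% of all tested genes), and 8-week replicate 1 was above replicate 2 in 52 of 59 (88.1%; 49% of all tested genes). Members are thus not independent measurements.

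Promoters are shown for members that stood on different sides of these differences, since known regulators of respiratory genes bind close to the start site. RefSeq windows (GRCm38.p6) were found for 47 of the 61 members. The windows run from 250 bases before to 50 after the start and were searched on both strands for GCGC and TGCGC with 1 base of any kind between them (nuclear respiratory factor 1, NRF1), CCGGAAGT (GABPA, also called nuclear respiratory factor 2), TNAAGGTCA (oestrogen-related receptors) and AANATGGCG (YY1). The NRF1 letters stood in 12 of 47 members (25.5%) and in 4.6% of all 32851 windows, and the GABPA letters in 8 members (17%) and 3.89% of windows. The YY1 letters stood in 5 members (10.6%; 2.38% of windows) and the receptor letters in 2 (4.26%; 1.28% of windows). Among members that fell, 6 of 27 held the NRF1 letters and 5 of 27 the GABPA letters; among members that rose, 1 of 3 and 2 of 3 did, and among members that were not called, 5 of 15 and 1 of 15. Letters that match are a description and not a bound site.

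The windows below are cut to 275 bases, 25 of them after the start, and are written 5′ to 3′ on the gene's strand with matches in capitals. Sdha and Sdhb, partners in complex II of which the first rose and the second fell, lie on the minus strand at chr13:74350216-74350490 and on the plus strand at chr4:140961021-140961295. Sdha holds the NRF1 letters 3 times, read from the other strand and beginning 98, 55 and 10 bases before its start, and Sdhb holds none of the 4 motifs in this window.
Sdha: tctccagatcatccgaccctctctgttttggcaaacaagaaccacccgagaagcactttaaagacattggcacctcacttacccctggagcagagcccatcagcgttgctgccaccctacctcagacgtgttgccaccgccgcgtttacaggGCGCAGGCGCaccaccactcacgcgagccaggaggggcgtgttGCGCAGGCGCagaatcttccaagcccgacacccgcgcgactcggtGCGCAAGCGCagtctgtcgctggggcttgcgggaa
Sdhb: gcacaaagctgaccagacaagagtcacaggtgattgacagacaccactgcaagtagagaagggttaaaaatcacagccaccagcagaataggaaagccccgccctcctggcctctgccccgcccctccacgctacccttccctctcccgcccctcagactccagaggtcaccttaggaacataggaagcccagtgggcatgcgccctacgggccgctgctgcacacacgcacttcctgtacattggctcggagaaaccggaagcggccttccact

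Cox8b and Cox8a, the muscle and general forms of subunit VIII of complex IV, both fell and lie on the minus strand at chr7:140900422-140900696 and chr19:7217592-7217866. Cox8b holds none of the motifs, and Cox8a has the GABPA letters 2 times in the searched window. The match shown is read from the other strand, 6 bases before its start, and the other is not within the bases shown.
Cox8b: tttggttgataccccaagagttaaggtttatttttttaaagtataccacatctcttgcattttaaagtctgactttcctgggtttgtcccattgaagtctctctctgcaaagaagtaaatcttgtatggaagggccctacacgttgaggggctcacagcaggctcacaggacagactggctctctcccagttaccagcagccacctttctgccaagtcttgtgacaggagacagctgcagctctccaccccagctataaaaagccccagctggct
Cox8a: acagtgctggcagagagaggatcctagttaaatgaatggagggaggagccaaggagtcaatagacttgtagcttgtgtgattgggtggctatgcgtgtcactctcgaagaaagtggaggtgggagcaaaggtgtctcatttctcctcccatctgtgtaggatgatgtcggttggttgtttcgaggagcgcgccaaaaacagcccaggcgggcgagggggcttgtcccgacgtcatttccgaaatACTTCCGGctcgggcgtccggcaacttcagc

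Uqcr11 of complex III and Atp5g3 of complex V fell, and Cox15, which makes haem A for complex IV, rose; all lie on the minus strand, at chr10:80406797-80407071, chr2:73911302-73911576 and chr19:43752976-43753250. Uqcr11 has the GABPA letters 66 bases before its start and Cox15 has them from base 8 of its transcript. Atp5g3 has the receptor letters, read from the other strand, 52 bases before its start and the NRF1 letters from base 13 of its transcript. The GABPA letters stood at different places in Uqcr11, which fell, and Cox15, which rose, and their part in either difference was not tested.
Uqcr11: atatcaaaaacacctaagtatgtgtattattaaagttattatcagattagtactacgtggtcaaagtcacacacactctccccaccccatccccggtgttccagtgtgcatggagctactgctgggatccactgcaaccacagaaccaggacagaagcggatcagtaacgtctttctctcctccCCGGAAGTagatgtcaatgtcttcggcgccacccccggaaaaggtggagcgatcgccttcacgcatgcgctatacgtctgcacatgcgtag
Atp5g3: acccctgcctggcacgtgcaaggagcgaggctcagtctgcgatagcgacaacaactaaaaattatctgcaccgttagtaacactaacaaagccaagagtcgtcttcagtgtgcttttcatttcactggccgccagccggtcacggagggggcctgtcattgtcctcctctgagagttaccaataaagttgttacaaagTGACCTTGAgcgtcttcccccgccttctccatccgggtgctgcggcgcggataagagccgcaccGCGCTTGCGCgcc
Cox15: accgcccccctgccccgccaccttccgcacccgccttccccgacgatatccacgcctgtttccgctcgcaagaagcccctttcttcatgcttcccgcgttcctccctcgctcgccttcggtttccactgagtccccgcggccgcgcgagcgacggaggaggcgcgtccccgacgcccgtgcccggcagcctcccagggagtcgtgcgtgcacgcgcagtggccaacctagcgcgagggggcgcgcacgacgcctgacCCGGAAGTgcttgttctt

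In complex II the subunits parted. Sdha (chr13:74322254-74350280 in GRCm38), the flavoprotein that oxidises succinate, had 273 and 281 FPKM at 12 months, against 168 and 163 FPKM at 8 weeks. The 12-month libraries stood well above the 8-week ones, and the rise was 0.68 ± 0.07 on the log2 scale (SE; edgeR adjusted p = 0.00173). Sdhb (chr4:140961203-140979193), the iron-sulfur subunit bound to it, had 198 and 216 FPKM at 12 months, against 286 and 254 FPKM at 8 weeks. It fell by 0.44 ± 0.09 (edgeR adjusted p = 0.0129), a call lost without 8-week replicate 1, where the log2 fold change was -0.35. The call was also lost with limma on log2(FPKM + 0.1) (-0.38, limma adjusted p = 0.0631) and under the rescaling of FPKM (-0.24, limma adjusted p = 0.13). The pair form the succinate-oxidising head of the enzyme, and the ratio of Sdha to Sdhb was 1.38 and 1.3 at 12 months, against 0.589 and 0.641 at 8 weeks.

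Sdhc and Sdhd, which anchor that head in the membrane and hold its haem, did not pass the test. Sdhc had 92.1 and 95.8 FPKM at 12 months, against 80.6 and 75.5 FPKM at 8 weeks (0.21 ± 0.08; edgeR adjusted p = 0.08). Sdhd had 192 and 208 FPKM at 12 months, against 172 and 154 FPKM at 8 weeks (0.24 ± 0.09; edgeR adjusted p = 0.0804). In both, the 12-month libraries were the higher ones and the ages did not overlap. DESeq2 called Sdha, Sdhc and Sdhd higher, so the anchors lie at the edge of the threshold.

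None of the 4 complex II assembly factors passed in the main edgeR fit, with TMM scaling, a minimum of 1 FPKM, mitochondrial genes kept and no trend removed. At an unadjusted p below 0.05 there were 1 higher and 2 lower of the 4, beside 3084 higher and 2772 lower of all 12027 tested genes. DESeq2 called 1, Sdhaf1, lower (19% of all tested genes). Sdhaf1 also passed with either length trend removed (-0.49 and -0.51; edgeR adjusted p = 0.0349 and 0.0337), and Sdhaf1 (-0.50) and Sdhaf4 (-0.51) passed with the GC trend removed (edgeR adjusted p = 0.0318 and 0.0284) and also with upper-quartile scaling (-0.46 and -0.43). Sdhaf1, which helps to insert the iron-sulfur clusters of Sdhb, had 3.59 and 4.03 FPKM at 12 months, against 5.27 and 4.56 FPKM at 8 weeks (-0.43 ± 0.14; edgeR adjusted p = 0.0516). Sdhaf4, which helps flavin-loaded Sdha join Sdhb, had 8.11 and 8.62 FPKM at 12 months, against 10.5 and 10.6 FPKM at 8 weeks (-0.39 ± 0.13; edgeR adjusted p = 0.0556). Both stood lower in the 12-month libraries. Sdhaf2, needed to attach the flavin to Sdha, had 5.62 and 5.81 FPKM at 12 months, against 4.88 and 4.42 FPKM at 8 weeks (0.24 ± 0.09; edgeR adjusted p = 0.0767). Under rescaling Sdhaf2 was called higher (0.40, limma adjusted p = 0.0258). Sdhaf3, which acts in the maturation of Sdhb, had 1.24 and 1.11 FPKM at 12 months, against 1.5 and 1.22 FPKM at 8 weeks, and its ages overlapped. Of the other genes listed for building this enzyme, Isca1, an iron-sulfur cluster assembly protein, rose (0.57 ± 0.07; edgeR adjusted p = 0.00282), and Isca2 (-0.19), Nfu1 (-0.17) and Hscb (-0.30) did not pass.

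In complex III, 7 of 9 subunits fell (77.8%, against 17.5% of all tested genes) and 1 rose (11.1%, against 20.1%). Uqcrc2 (chr7:120635176-120659524), core protein 2, had 281 and 300 FPKM at 12 months, against 238 and 231 FPKM at 8 weeks. Its rise of 0.25 ± 0.07 (edgeR adjusted p = 0.0396) was small, and it was lost without 8-week replicate 1 (0.27) or without 8-week replicate 2 (0.22). It was also lost with the GC trend removed (0.14; edgeR adjusted p = 0.183) and with upper-quartile scaling (0.21), a minimum of 5 FPKM (0.20) or none (0.27), limma on log2(FPKM + 0.1) (0.31), or mitochondrial genes left out (0.23). Uqcrc1, core protein 1 and its partner in the matrix-facing part of the complex, had 191 and 220 FPKM at 12 months, against 264 and 258 FPKM at 8 weeks. Uqcrc1 fell by 0.40 ± 0.08 (edgeR adjusted p = 0.0131), a call lost without 8-week replicate 1 (-0.38) or replicate 2 (-0.42). That call was also lost in limma on log2(FPKM + 1) (-0.34) and log2(FPKM + 0.1) (-0.35), and under rescaling (-0.20). The ratio of Uqcrc2 to Uqcrc1 was 1.47 and 1.36 at 12 months, against 0.901 and 0.896 at 8 weeks.

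Cyc1 and Uqcrfs1 carry the nuclear redox centres of complex III. Cyc1, cytochrome c1, had 195 and 204 FPKM at 12 months, against 272 and 253 FPKM at 8 weeks, and fell by 0.46 ± 0.08 (edgeR adjusted p = 0.00718), a call that was lost without 8-week replicate 1 (-0.40). Uqcrfs1, the Rieske iron-sulfur protein, had 335 and 386 FPKM at 12 months, against 404 and 371 FPKM at 8 weeks; its ages overlapped and it did not pass (-0.16 ± 0.09; edgeR adjusted p = 0.218). All 5 other subunits fell, with a median of -0.81, and the median over the core and redox subunits was -0.28. These groups also differ in transcript length, as given below. Uqcrq (chr11:53427922-53430831), which lies beside mitochondrially encoded cytochrome b, had 60.7 and 62.5 FPKM at 12 months, against 134 and 126 FPKM at 8 weeks (-1.14 ± 0.08; edgeR adjusted p = 0.0012). Uqcr11, whose promoter is shown above, had 112 and 130 FPKM at 12 months, against 248 and 242 FPKM at 8 weeks (-1.08 ± 0.09; edgeR adjusted p = 0.0012). Uqcrb, known as a ubiquinone-binding protein, had 167 and 184 FPKM at 12 months, against 261 and 231 FPKM at 8 weeks (-0.55 ± 0.09; edgeR adjusted p = 0.0071), a call lost without 8-week replicate 1 (-0.45). Uqcrh, the hinge protein that docks cytochrome c (-0.81), and Uqcr10 (-0.75) fell too, and for Uqcr10 a gene with a near-identical coding stretch held 16.69% as many counts.

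**Figure D2:**
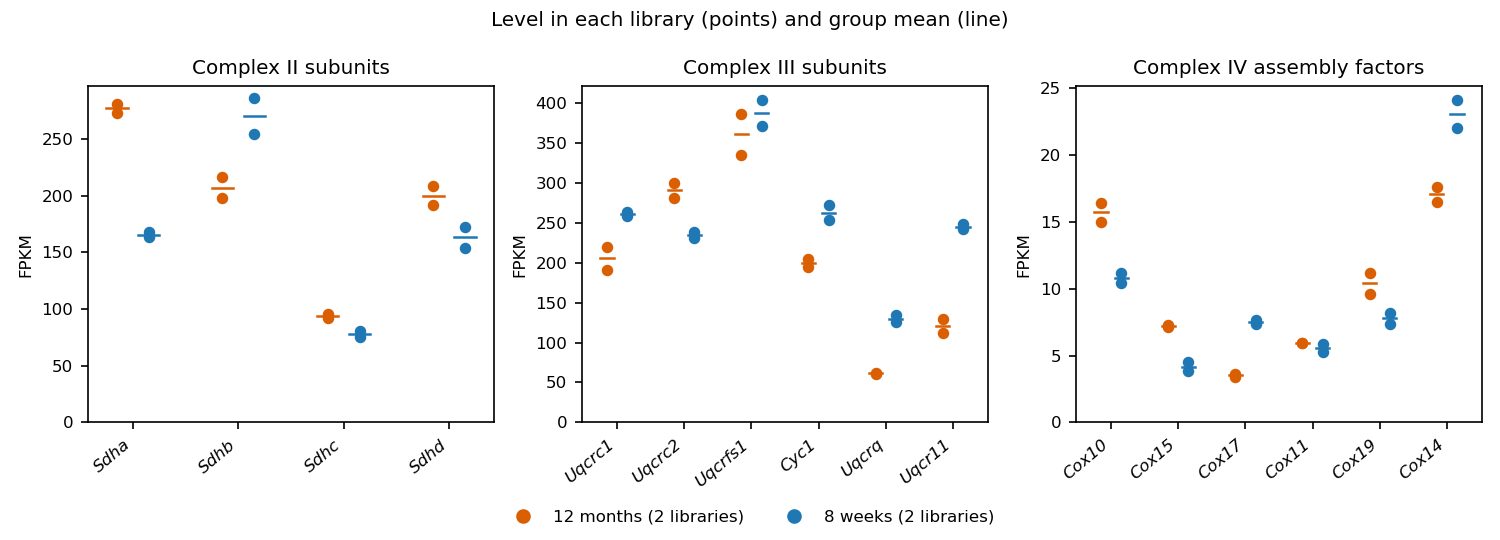
FPKM (vertical axis) in each library for the 4 subunits of complex II, 6 subunits of complex III and 6 assembly factors of complex IV; orange points are the 12-month libraries, blue points the 8-week libraries and lines the group means. Sdha at 12 months (273 and 281 FPKM) lies above Sdha at 8 weeks (168 and 163 FPKM) while Sdhb, Uqcrq, Uqcr11 and Cox17 lie below their 8-week points.

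In complex IV, 14 of 15 tested subunits fell (93.3%, against 17.5% of all tested genes), and none rose with edgeR, with DESeq2 or at an unadjusted p below 0.05. The exception was Cox7a2l, a relative of the Cox7a subunits described as a factor of supercomplexes, assemblies that hold complexes III and IV. It had 86 and 93.8 FPKM at 12 months, against 100 and 89.7 FPKM at 8 weeks, with overlapping ages (-0.14 ± 0.09; edgeR adjusted p = 0.253). Cox5b (chr1:36691449-36693681), which lies on the matrix side, had 82.7 and 94.6 FPKM at 12 months, against 184 and 169 FPKM at 8 weeks. It fell by 1.05 ± 0.09 (edgeR adjusted p = 0.00128). Cox5a, another subunit on that side, had 130 and 143 FPKM at 12 months, against 211 and 189 FPKM at 8 weeks (-0.61 ± 0.09; edgeR adjusted p = 0.00458).

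The subunits that carry isoforms fell in both forms. Cox4i1, the general form of subunit IV, had 365 and 426 FPKM at 12 months, against 645 and 585 FPKM at 8 weeks (-0.70 ± 0.10; edgeR adjusted p = 0.00389). Cox4i2 (chr2:152754173-152765037), a form that responds to oxygen and is not a muscle form, had 4.59 and 5.12 FPKM at 12 months, against 11.8 and 11.5 FPKM at 8 weeks (-1.32 ± 0.15; edgeR adjusted p = 0.00232). Cox4i2 was the subunit with the largest fall, to 40.1% of its 8-week level. Cox6a2, the muscle form of subunit VIa, had 606 and 712 FPKM at 12 months, against 1031 and 1043 FPKM at 8 weeks (-0.71 ± 0.09; edgeR adjusted p = 0.00301). Cox6a1, the general form, had 63.3 and 62.9 FPKM at 12 months, against 74.9 and 73.8 FPKM at 8 weeks (-0.29 ± 0.07; edgeR adjusted p = 0.0208). Its call held in 1 of the 4 fits that left out a library, with log2 fold changes of -0.33 to -0.27, and was lost with the GC trend removed (-0.07) and under rescaling (-0.09; limma adjusted p = 0.374).

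The Cox7a and Cox8 pairs ran likewise. Cox7a1, of heart and skeletal muscle, had 146 and 185 FPKM at 12 months, against 310 and 295 FPKM at 8 weeks (-0.93 ± 0.11; edgeR adjusted p = 0.00271). Cox7a2, the general form, had 122 and 140 FPKM at 12 months, against 210 and 185 FPKM at 8 weeks (-0.65 ± 0.10; edgeR adjusted p = 0.0054). The fitted fall was larger in size in the muscle form. Cox8b had 153 and 176 FPKM at 12 months, against 314 and 301 FPKM at 8 weeks (-0.96 ± 0.08; edgeR adjusted p = 0.00128). Cox8a had 59.3 and 64 FPKM at 12 months, against 88.2 and 76.4 FPKM at 8 weeks (-0.48 ± 0.10; edgeR adjusted p = 0.0121), a call lost without 8-week replicate 1 (-0.37) and under rescaling (-0.27). The Cox8b call held in all 4 of those fits.

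Put as a share of each pair's FPKM within a library, which does not depend on library scaling, the muscle form of all 3 pairs was lower at 12 months. Cox6a2 made up 90.5% and 91.9% of its pair at 12 months, against 93.2% and 93.4% at 8 weeks. Cox7a1 made up 54.5% and 56.8% at 12 months, against 59.6% and 61.5% at 8 weeks. Cox8b made up 72.1% and 73.3% at 12 months, against 78.1% and 79.8% at 8 weeks. The ages did not overlap, and the muscle forms were the larger part of their pairs at both ages. As differences of the log2 ratio (12 months minus 8 weeks) the shifts were -0.42 for Cox6a2, -0.29 for Cox7a1 and -0.49 for Cox8b, with pooled SDs of 0.123, 0.0883 and 0.0857 (n = 2 each). Cox4i2, at 1.24% and 1.19% of its pair at 12 months, against 1.8% and 1.93% at 8 weeks, shifted by -0.63. In an exact permutation test (two-sided) each of these ratios, and each of 5 other ratios between members, had p = 0.33, the smallest that 2 against 2 libraries can give, and the Benjamini-Hochberg value over the 9 ratios was 0.33 too.

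**Figure D3:**
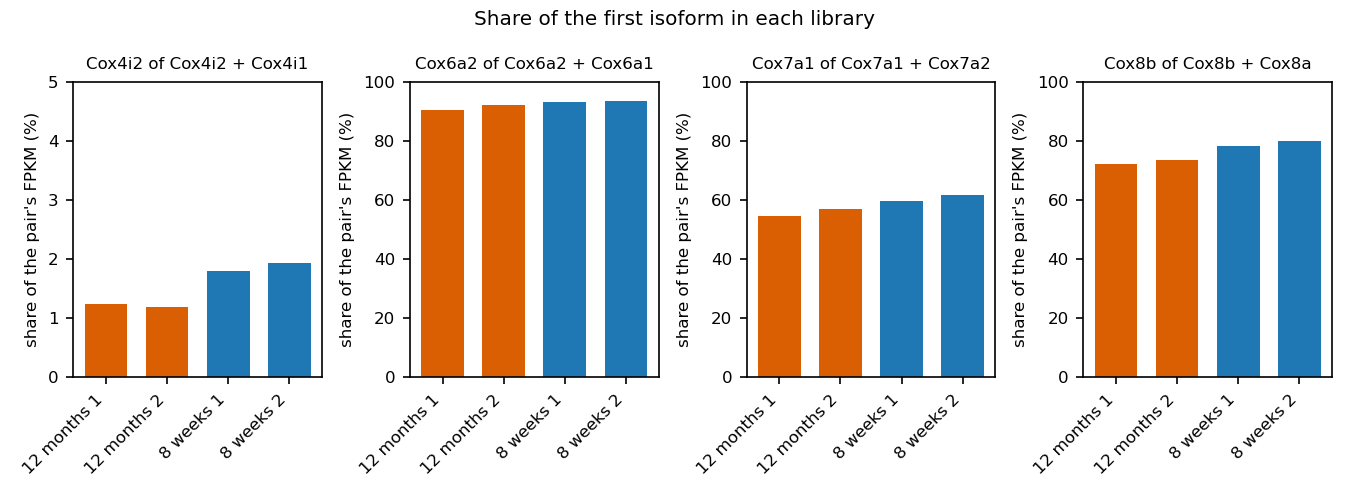
Share of the pair's summed FPKM (vertical axis, %) held by Cox4i2, Cox6a2, Cox7a1 and Cox8b in each library, with the 12-month libraries in orange and the 8-week libraries in blue; the axis of the Cox4i2 panel ends at 5%. In every panel both 12-month bars are lower than both 8-week bars, as for Cox8b with 72.1% and 73.3% against 78.1% and 79.8%.

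The remaining complex IV subunits have no isoform partner that passed the expression minimum. Cox6b1 had 275 and 306 FPKM at 12 months, against 477 and 450 FPKM at 8 weeks (-0.73 ± 0.08; edgeR adjusted p = 0.00226), and its testis partner Cox6b2 had 0.712 and 0.924 FPKM at 12 months, against 0.723 and 1.02 FPKM at 8 weeks. Cox6c had 62.7 and 72.9 FPKM at 12 months, against 135 and 121 FPKM at 8 weeks (-0.97 ± 0.10; edgeR adjusted p = 0.00185). The processed pseudogene Cox6c2, which shares 96.97% of its aligned bases with Cox6c, had 3.8 and 3.73 FPKM at 12 months, against 9.57 and 12.5 FPKM at 8 weeks (-1.60 ± 0.31; edgeR adjusted p = 0.0109). Reads may be split between that pseudogene and Cox6c, so its value is uncertain, and its call was lost without 8-week replicate 2 (-1.40). Cox7b had 111 and 124 FPKM at 12 months, against 192 and 178 FPKM at 8 weeks (-0.71 ± 0.09; edgeR adjusted p = 0.00255). Cox7c had 83.2 and 105 FPKM at 12 months, against 160 and 151 FPKM at 8 weeks (-0.79 ± 0.12; edgeR adjusted p = 0.00455). Cox7b2, the testis partner of Cox7b, had 0 and 0.272 FPKM at 12 months, against 0.141 and 0.32 FPKM at 8 weeks.

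The 9 complex IV assembly factors went both ways, with 2 higher and 2 lower (22.2% each). Those shares lie near the 20.1% and 17.5% of all tested genes. Cox10 and Cox15, which turn haem B into the haem A of complex IV in successive steps, were the members of complex IV that rose. Cox10 had 16.4 and 15 FPKM at 12 months, against 11.2 and 10.4 FPKM at 8 weeks (0.48 ± 0.09; edgeR adjusted p = 0.0103), a call lost without 8-week replicate 1 (0.53) or replicate 2 (0.43). Cox15 had 7.31 and 7.13 FPKM at 12 months, against 3.86 and 4.48 FPKM at 8 weeks (0.73 ± 0.10; edgeR adjusted p = 0.00389), and kept its call in all 4 fits without a library. Cutc, which overlaps Cox15 on the opposite strand, held 22.41% as many counts as Cox15; the strand setting of the counting is not given in the sources used here.

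Copper and membrane factors make up the rest of the complex IV assembly factors. Cox17 (chr16:38346991-38352763), the chaperone that hands copper to the factors loading the mitochondrially encoded subunits Cox1 and Cox2, had 3.42 and 3.65 FPKM at 12 months, against 7.65 and 7.33 FPKM at 8 weeks (-1.14 ± 0.08; edgeR adjusted p = 0.0012). Cox19, also of the copper route, had 11.2 and 9.59 FPKM at 12 months, against 7.35 and 8.2 FPKM at 8 weeks (0.36 ± 0.11; edgeR adjusted p = 0.0528). Cox11, which inserts the copper of Cox1, had 5.92 and 5.9 FPKM at 12 months, against 5.86 and 5.28 FPKM at 8 weeks (0.03 ± 0.14; edgeR adjusted p = 0.883), and Tom1l1 on its opposite strand had 218.5% as many counts. Of these copper factors 1 fell and none rose in the main edgeR fit, beside 17.5% of all tested genes lower and 20.1% higher. They are too few to set against those shares. Cox19 was called higher by DESeq2 (0.35, DESeq2 adjusted p = 0.0329) and under rescaling (0.53, limma adjusted p = 0.0275). Cox14, which acts around the synthesis of Cox1, had 16.5 and 17.6 FPKM at 12 months, against 24.1 and 22 FPKM at 8 weeks (-0.49 ± 0.08; edgeR adjusted p = 0.00656), a call lost without 8-week replicate 1 (-0.42). The factors of Cox2 did not pass: Cox16 (-0.36 ± 0.13; 2.33 and 2.69 FPKM at 12 months, against 3.16 and 3.02 FPKM at 8 weeks), Cox18 (-0.03 ± 0.17; 2.78 and 2.41 FPKM, against 2.35 and 2.77 FPKM) and Cox20 (-0.36 ± 0.12; 9.69 and 9.95 FPKM, against 11.5 and 12.8 FPKM) had edgeR adjusted p of 0.0711, 0.889 and 0.0641. Cox20 overlaps Hnrnpu on the opposite strand, which had 2388% as many counts. Within libraries the ratio of Cox15 to Cox17 was 2.14 and 1.95 at 12 months, against 0.505 and 0.612 at 8 weeks.

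In complex V, 12 of 17 subunits fell (70.6%, against 17.5% of all tested genes) and none rose in the main edgeR fit. Of them 1, Atp5a1, was higher at an unadjusted p below 0.05 (3084 of all 12027 tested genes) and with DESeq2 (21.5% of all tested genes). Atp5a1, the alpha subunit, had 1034 and 1089 FPKM at 12 months, against 907 and 873 FPKM at 8 weeks, higher at 12 months with no overlap (0.20 ± 0.06; edgeR adjusted p = 0.0544). Atp5b, the catalytic beta subunit, had 750 and 820 FPKM at 12 months, against 847 and 774 FPKM at 8 weeks (-0.11 ± 0.08; edgeR adjusted p = 0.314). Atp5c1, the gamma subunit that turns inside the head, had 319 and 362 FPKM at 12 months, against 400 and 359 FPKM at 8 weeks (-0.22 ± 0.09; edgeR adjusted p = 0.118). These 3, which make up most of the catalytic head, did not pass in the main edgeR fit. DESeq2 called Atp5c1 lower (-0.22, DESeq2 adjusted p = 0.0447), and rescaling called Atp5a1 higher (0.40, limma adjusted p = 0.0217). With the GC trend removed 1 of the 3 was called higher and 1 lower. Atp5d, the delta subunit, had 150 and 168 FPKM at 12 months, against 236 and 220 FPKM at 8 weeks (-0.58 ± 0.09; edgeR adjusted p = 0.00463), a call lost without 8-week replicate 1 (-0.52). Atp5e (chr2:174461072-174464105), the epsilon subunit and the smallest of the head, had 39 and 39.7 FPKM at 12 months, against 84.8 and 79.4 FPKM at 8 weeks (-1.12 ± 0.07; edgeR adjusted p = 0.0012). The ratio of Atp5a1 to Atp5e was 26.5 and 27.4 at 12 months, against 10.7 and 11 at 8 weeks.

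The c ring, which turns as protons pass, is built from 1 mature protein encoded by Atp5g1, Atp5g2 and Atp5g3. Atp5g3 had 238 and 270 FPKM at 12 months, against 443 and 402 FPKM at 8 weeks (-0.79 ± 0.09; edgeR adjusted p = 0.00236). Atp5g1 had 88.2 and 101 FPKM at 12 months, against 133 and 118 FPKM at 8 weeks (-0.47 ± 0.10; edgeR adjusted p = 0.014), a call lost without 8-week replicate 1 (-0.38). Atp5g2 had 54.1 and 60.7 FPKM at 12 months, against 58.4 and 52.8 FPKM at 8 weeks, with overlapping ages (-0.01 ± 0.09; edgeR adjusted p = 0.908). Of the counts of these 3 genes, Atp5g3 held 49.7% in both 12-month libraries, against 56.2% and 56.8% at 8 weeks. Atp5g1 held 41.6% and 41.7% at 12 months, against 38.1% and 37.5% at 8 weeks, and Atp5g2 held 8.7% and 8.57%, against 5.69% and 5.73%. Near-identical copies of the coding sequence had 19.57% as many counts as Atp5g1 and 25.59% as many as Atp5g2, so those shares depend on how reads were assigned.

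The stalk and membrane subunits of complex V fell, with 1 exception. All 5 of the small membrane subunits fell (Atp5mpl -1.06, Atp5j2 -0.93, Atp5k -0.92, Atp5l -0.85, Atp5md -0.68), which sit beside the c ring, several of them helping ATP synthases to pair. Atp5mpl had 41 and 44.5 FPKM at 12 months, against 87.9 and 83.3 FPKM at 8 weeks (edgeR adjusted p = 0.0012), and stood well apart at the 2 ages. In the peripheral stalk, which holds the head still, Atp5h (-0.89), Atp5j (-0.77) and Atp5o, the subunit that caps the head (-0.62), fell. Atp5pb, subunit b of that stalk, had 161 and 179 FPKM at 12 months, against 185 and 174 FPKM at 8 weeks, with overlapping ages (-0.14 ± 0.08; edgeR adjusted p = 0.214). Copies held 18.98% as many counts as Atp5l and 10.23% as many as Atp5h, and Gabpa on the opposite strand held 14.62% as many as Atp5j.

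Genes outside the name rule that belong to these complexes were read from lists chosen by function. Of 6 mitochondrially encoded subunits of complexes III to V, 5 fell and none rose in edgeR (median -0.41; none was higher with DESeq2 or at an unadjusted p below 0.05 either): mt-Co3 (-0.64), mt-Co2 (-0.59), mt-Atp6 (-0.47), mt-Cytb (-0.34) and mt-Co1 (-0.13), with 17.5% of all tested genes lower. The call of mt-Co1 was lost in each of the 4 fits that left out a library and that of mt-Cytb in 1 of them, and mt-Atp8 did not pass (0.04). Under rescaling mt-Co1 turned to 0.08 and mt-Cytb to -0.14, neither called, and with the trend on the longest transcript removed mt-Cytb (-0.19), mt-Atp6 (-0.32) and mt-Co1 (-0.06) were not called. Ndufa4, a subunit of complex IV that was first assigned to complex I (-0.94), and Atpif1, which inhibits the ATP synthase when it runs backwards (-1.02), fell, while Cycs, cytochrome c, did not pass (-0.12). Assembly factors outside the rule were called in both directions, and their counts stand beside 20.1% of all tested genes higher and 17.5% lower. For complex III, Ttc19 (0.52), Uqcc1 (0.48) and Lyrm7 (0.41) rose and Uqcc3 (-0.91) and Uqcc2 (-0.87) fell, of 6 genes; the call of Lyrm7 was lost in each of the 4 fits without a library and with either length trend removed (0.34 and 0.32). For complex IV, 3 of 19 rose and 4 fell. Taco1, an activator of Cox1 translation, had 20.1 and 20.9 FPKM at 12 months, against 6.49 and 7.18 FPKM at 8 weeks (1.52 ± 0.11, edgeR adjusted p = 0.0012). Lrpprc, which stabilises mitochondrial messenger RNA, rose (0.91), and its partner Slirp fell (-0.82), a call kept in 2 of the 4 fits without a library. Coa5 rose (0.90), and Higd2a (-0.48), Smim20 (-0.44) and Coa3 (-0.36) fell. These 3 falls lost their call under rescaling (-0.27, -0.23 and -0.15). For complex V, Atpaf1 (0.65), Atpaf2 (0.43) and Tmem70 (0.36) rose and Fmc1 fell (-1.05), of 5 genes, with the calls of Atpaf2 and Tmem70 each kept in 1 of the 4 fits without a library.

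The size of the difference ran with transcript length. Across 58 members with a principal transcript in the GENCODE annotation, Spearman's rank correlation between its length and the log2 fold change was 0.75, a description across genes that share libraries and, in part, base composition. With the longest transcript in place of the principal one it was 0.44 across 59 members. In complex III the principal transcripts of the core and redox subunits had 1363 to 1896 nt, against 405 to 547 nt for the other subunits. In complex V those of Atp5a1, Atp5b and Atp5c1 had 2471, 1916 and 1166 nt, against 931 nt for Atp5d and 421 nt for Atp5e. Between these groups, length and place in the enzyme cannot be told apart. The median principal transcript was 725 nt for members and 2741 nt for all tested genes, and over all tested genes the 2405 shortest (up to 1557 nt by their longest transcript) had a median log2 fold change of -0.22, and the 2405 longest (from 5008 nt) one of 0.08. With the trend of counts on the longest transcript's length removed in each library, 36 members fell (18.1% of all tested genes) and 5 rose (16.8%), with a median of -0.49; with the principal transcript's length, a setting added after the data were seen, 36 fell (17.6%) and 4 rose (16.2%), with a median of -0.43. The rank correlation with the principal length was still 0.73 and 0.72 in these fits. The calls of Cox6a1 (-0.17 and -0.15) and Cox8a (-0.39 and -0.34) were lost in both, that of Uqcrc2 was lost with the principal length (0.22), Sdhd (0.37 and 0.33) and Sdhaf1 (-0.49 and -0.51) passed in both, and those of Sdha (0.61 and 0.59), Cox15 (0.66 and 0.64), Uqcrq (-1.07 in both) and Cox17 (-1.21 and -1.06) were kept. Length, RNA integrity and library preparation were not varied by the design, so their part in the result was not tested beyond these fits.

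**Figure D4:**
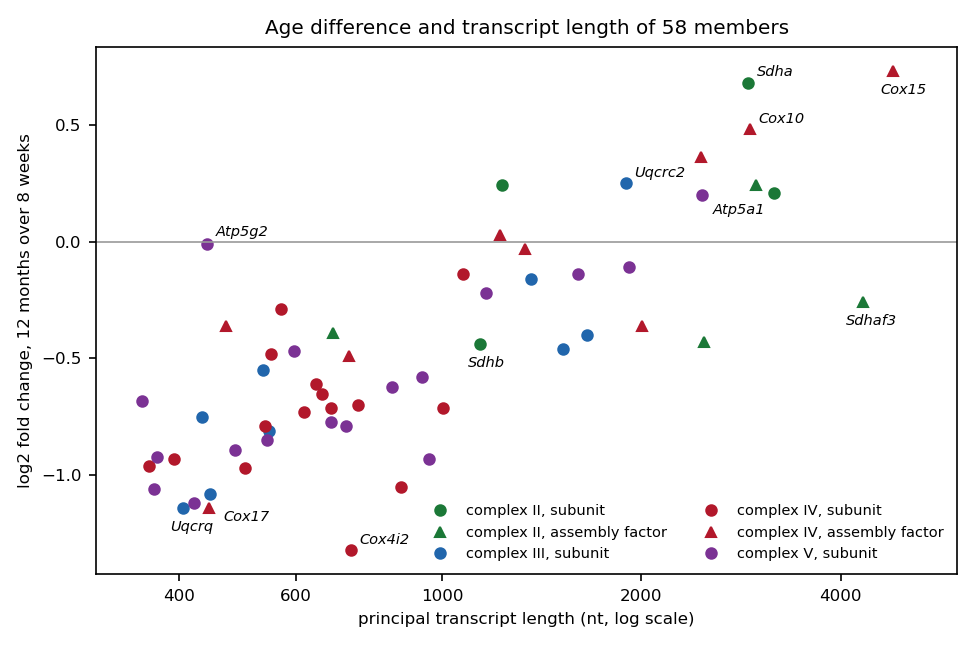
Log2 fold change (12 months over 8 weeks, vertical axis) against the length of the principal transcript (nt, log scale) for the 58 tested members that have one, coloured by complex, with circles for subunits and triangles for assembly factors. Short transcripts such as Uqcrq and Cox17 (both -1.14) lie low, and long ones such as Sdha (0.68) and Cox15 (0.73) lie high, with Spearman's rank correlation of 0.75 across members.

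Marker genes of other cell types moved between the ages as well. Beside the marker counts here and in the next paragraph, 20.1% of all tested genes were called higher and 17.5% lower. Of 8 atrial markers all rose, and their summed level was 4457 and 1719 FPKM at 12 months, against 288 and 290 FPKM at 8 weeks. White fat markers rose in 6 of 7 tested (Lep was below 1 FPKM everywhere), with sums of 89.4 and 144 FPKM at 12 months, against 19.5 and 14.8 FPKM at 8 weeks. Of the brown fat markers 1 of 4 tested rose, Ucp1, with 55.2 and 10.2 FPKM at 12 months, against 0.704 and 0.29 FPKM at 8 weeks, and the list summed to 86.6 and 31.3 FPKM, against 18 and 18.2 FPKM. All 8 endothelial markers fell, with sums of 159 and 157 FPKM at 12 months, against 325 and 323 FPKM at 8 weeks. Atrial and fat-cell marker RNA was thus more abundant in the 12-month libraries than in the 8-week libraries, endothelial marker RNA was less abundant, and none of these lists had a marker at 0 in every library.

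Heart muscle markers split: of 10, 2 rose (Ryr2 1.03 and Actc1 0.32) and 6 fell (Myl2 -0.98, Tnni3 -0.85, Myl3 -0.79, Mb -0.70, Tnnt2 -0.62, Ckm -0.36), with sums of 17877 and 18100 FPKM at 12 months, against 20798 and 20598 FPKM at 8 weeks. Among 8 pericyte and smooth muscle markers 4 fell (Vtn -1.37, Kcnj8 -0.95, Rgs5 -0.77, Pdgfrb -0.66) and Tagln rose (0.92). Abcc9 (0.06), Acta2 (0.24) and Myh11 (0.31) did not pass. This list summed to 308 and 338 FPKM at 12 months, against 360 and 382 FPKM at 8 weeks. Markers of skeletal muscle, which shares the muscle isoforms, summed to 13 and 11.4 FPKM at 12 months, against 17.3 and 14.8 FPKM at 8 weeks; Myh1, Myh2, Myh4 and Actn3 were below 1 FPKM in every library and 2 of the other 4 fell. Of 6 fibroblast markers 1 rose, a share near that of all tested genes (sums of 200 and 179 FPKM, against 152 and 150 FPKM). Of 6 macrophage markers 2 rose, and their sums overlapped between the ages (83.4 and 103 FPKM, against 86.4 and 75.5 FPKM). In whole tissue, fewer cells of a type and less RNA per cell cannot be told apart, and the part of these cell types in the differences of complexes II to V was not tested.

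Levels of different genes can be compared only as far as the length behind the FPKM allows. The length implied by the deposited counts and FPKM exceeded the principal transcript by a median of 1.75 times over 58 members, by more than 1.5 times in 33 of them and by up to 13 times, in Cox17. Ratios between members therefore hold between libraries, where that length cancels, more firmly than as absolute ratios: with the principal lengths in place of the authors', the ratio of Cox6a2 to Cox6a1 was 7.78 and 9.2 at 12 months, against 11.2 and 11.5 at 8 weeks, and that of Sdha to Sdhb was 1 and 0.942, against 0.427 and 0.465. In all, 24 members overlap another gene of the table and 19 have a near-identical coding copy in it.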

How the data were processed

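RNA was measured by poly(A) RNA-seq in 4 heart libraries, 2 at 12 months and 2 at 8 weeks. Per the labels' protocols, RNA of high integrity was made into dUTP-marked libraries for paired-end sequencing. Per the submitters' processing notes the tools were StringTie 2.1.6, HISAT2 2.2.1, cutadapt 1.9, edgeR and DESeq2, on GRCm38. How they were set, the strand option and the handling of multiply mapped reads were not given in the sources used here.

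Per the file headers, the authors deposited FPKM values and estimated counts per gene and library in 1 table. The expected counts were deposited as whole numbers and used as they stand. Counts were fitted with edgeR 4.0.16 in R 4.3.3 (quasi-likelihood, TMM scaling, intercept and age, no replicate block, two-sided). Genes with a mean FPKM of at least 1 over the 4 libraries were tested (12027), with calls at an adjusted p below 0.05; an SE is the absolute log2 fold change over the square root of F. The common dispersion was 0.02432, with 2 residual degrees of freedom. The script was tested on simulated data.

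Named members were all complex II subunits, all assembly factors, the Cox4 to Cox8 subunits, the F1 and c subunits of complex V, 6 subunits of complex III, and the largest and the opposing calls of each complex; Uqcr11, Uqcr10, Uqcrh, Atp5pb and the remaining complex V subunits, marker and list genes were named after their values were seen. The members and lists were chosen with earlier results of these data known.  Alternatives were DESeq2 1.42.0, limma 3.58.1 on log2 FPKM, other scalings and minimums, removal of length or GC trends (mgcv 1.9.3), and leaving out each library. Coding copies (at least 95% identity over 100 nt) were found with BLAST 2.17.0, and tables and plots came from matplotlib 3.10.9, scipy 1.17.1, numpy 2.4.6 and pandas 2.3.3 under Python 3.11.15.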

Additional observations from a re-analysis of the deposited data

How the results depend on the processing

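Of the 41 members called, 29 kept their call under all 17 other settings, 29 kept it in all 4 fits that left out a library, and none changed direction under any of them. Members that fell numbered 37 (17.5% of all tested genes) and members that rose numbered 4 (20.1%). The risers numbered 8 with DESeq2 (21.5% of all tested genes) and 9 with FPKM rescaled to 1 sum (31.4%). Fits without 1 library keep 1 library at an age, and calls over all tested genes changed there too, so their member counts are not set beside these. The rescaling of FPKM brought the median of all tested genes to 0.18 and gave 3773 higher and 1048 lower calls, against 2416 and 2104. In limma on log2(FPKM + 1) without rescaling that median was 0.05. The FPKM of all genes summed to 494057 and 496506 at 12 months, against 549019 and 546455 at 8 weeks. Setting 1 common sum therefore raised the 12-month values relative to the 8-week ones. Why the sums differ was not tested.

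Under rescaling the medians of subunits were 0.43 (complex II), -0.34 (III), -0.51 (IV) and -0.47 (V), and those of assembly factors -0.11 (II) and 0.14 (IV). The median of complex II subunits was 0.13 with the GC trend removed. That of complex II assembly factors was -0.13 at a minimum of 5 FPKM, -0.21 with log2(FPKM + 1) and -0.40 to -0.21 without 1 library. Complex III had -0.43 with the principal length trend removed and -0.64 to -0.45 without 1 library. The median of complex IV assembly factors, -0.03, had no stable sign: -0.07 with upper-quartile scaling, -0.01 at a minimum of 0.1 or with none, 0.02 with log2(FPKM + 1) and log2(FPKM + 0.1), 0.08 and 0.04 with the length trends removed, -0.05 with the GC trend removed and -0.18 to 0.05 without 1 library. The Cox4i2 shift was -0.47 with log2(FPKM + 1) and -0.55 under rescaling, Cox6a2 -0.67 with the GC trend removed and -0.54 to -0.30 without 1 library, Cox7a1 -0.40 and -0.42 and Cox8b -0.65 and -0.60 with the length trends removed.

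Members near 0 that were not called changed sign: under rescaling Uqcrfs1 (0.04), Cox7a2l (0.07), Cox18 (0.14), Atp5b (0.10), Atp5g2 (0.19) and Atp5pb (0.06); with the length trend removed Cox7a2l (0.02), Cox18 (0.08) and Atp5g2 (0.15), and with the principal length trend Cox18 (0.04) and Atp5g2 (0.06); with the GC trend removed Cox11 (-0.05) and Atp5g2 (0.22). Cox11 was -0.01 with upper-quartile scaling, -0.02 at 5 FPKM and -0.05 to 0.11 without 1 library; Cox18 was 0.02 in both log2 FPKM fits and -0.18 to 0.09 without 1 library; Atp5g2 was 0.01 at 0.1 FPKM or no minimum, 0.04 in both log2 FPKM fits and -0.09 to 0.06 without 1 library.

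No paired analysis was possible because the titles of the 2 ages share only the number 5 and the labels give no other replicate number. With 2 libraries an age, small differences such as those of Sdhc, Sdhd and Atp5a1 stay near the threshold, and a library that lacks its partner is assumed to vary like the other age.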
